A study of Mus musculus with 11 samples.

Results

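Ywhaz, the gene deleted in the 14-3-3ζKO mice, lies on mouse chromosome 15 (chr15:36700500-36725408), and the loci within 10 Mb of it on either side are described here. They were all rows of the authors' table of group values that overlap chr15:26700500-46725408 (NCBIM37), with the Ywhaz row left out. This gave 197 loci of 42815 in the whole table, and 147 of them carried a gene symbol. The measurements came from gonadal white adipose tissue of singly housed male C57Bl/6 mice, 50 weeks old, on standard rodent chow. The 5 14-3-3ζKO samples (KO) came from mice with a whole-body knockout of Ywhaz that was present before birth, so the deletion was not confined to fat cells. The other 6 samples were wild-type (WT). A low-fat diet is named in the study's own account of this tissue, which differs from the chow of the labels, and which of them applies is unsettled here. Expression was given as FPKM (sequenced fragments assigned to a locus, divided by transcript length and by library size), 1 value per group for every locus.

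Ywhaz encodes 14-3-3ζ, an adaptor that binds phosphorylated serine and threonine motifs on other proteins and so affects where they sit in the cell and how long they last. Genes that lie close together on a chromosome are inherited together and may share regulatory DNA, so the neighbours of a deleted gene are often read separately from the rest of the genome. The stretch around Ywhaz holds genes used by nearly every cell, such as the poly(A)-binding protein gene Pabpc1 and the ribosomal protein gene Rpl30. It also holds genes known mainly from other places, such as Odf1 of the sperm tail, the neuronal calcium sensor Ncald and the bitter taste receptor Tas2r119.

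The promoters of the members with the largest differences for which RefSeq's promoter table had an entry are printed first, since Ropn1l and Fam105a lead the differences in each direction there. Each run spans 250 bases before to 50 bases after the start, 5′ to 3′ on the strand of the gene (RefSeq, GRCm38.p6, placed in NCBIM37 by exact match). Capitals mark a GC box (GGGCGG, bound by Sp1-type factors), an RFX half-site (GTTGCC, part of the X-box of ciliary gene promoters) or a PU.1 core (GAGGAA, a myeloid factor), on either strand. The motifs were chosen after the values of these genes were seen.
Ropn1l, chr15:31383395-31383694, minus strand: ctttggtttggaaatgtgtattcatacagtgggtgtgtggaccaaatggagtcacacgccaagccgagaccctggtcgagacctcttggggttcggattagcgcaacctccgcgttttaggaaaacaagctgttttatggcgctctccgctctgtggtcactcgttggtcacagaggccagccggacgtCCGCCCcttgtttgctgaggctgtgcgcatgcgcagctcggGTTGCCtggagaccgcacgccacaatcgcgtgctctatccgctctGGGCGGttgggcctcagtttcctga
Fam105a, chr15:27611248-27611547, minus strand: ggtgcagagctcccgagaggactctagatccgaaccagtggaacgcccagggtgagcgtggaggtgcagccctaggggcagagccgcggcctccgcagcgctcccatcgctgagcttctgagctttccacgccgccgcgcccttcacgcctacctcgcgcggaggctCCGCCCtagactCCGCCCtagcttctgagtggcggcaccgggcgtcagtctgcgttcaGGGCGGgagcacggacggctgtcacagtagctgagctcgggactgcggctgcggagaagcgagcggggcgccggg
Ank, chr15:27396182-27396481, plus strand: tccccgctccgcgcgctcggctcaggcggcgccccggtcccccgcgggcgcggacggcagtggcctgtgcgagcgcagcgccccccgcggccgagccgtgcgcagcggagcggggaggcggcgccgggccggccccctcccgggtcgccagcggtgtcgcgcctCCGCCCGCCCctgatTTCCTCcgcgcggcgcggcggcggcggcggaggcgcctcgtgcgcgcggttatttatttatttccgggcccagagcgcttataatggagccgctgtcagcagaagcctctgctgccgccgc
Ropn1l was higher in KO tissue, and its promoter held 1 RFX half-site, which began at position -20, and GC boxes at -61 and 25. Fam105a (Otulinl in RefSeq) was lower in KO tissue and had GC boxes at -83, -71 and -25. Ank, also lower in KO tissue, had overlapping GC boxes at -86 and -82 and a PU.1 core at -71. Of the 57 symbol-bearing members expressed in this tissue, 11 had a promoter in the table. All 11 lie on the centromeric side, 4.07 to 9.18 Mb from Ywhaz, so they do not represent the members nearer to it or on the telomeric side. A GC box was found in 10 of these 11, against 35.9% of the 27025 promoters in the table, and an RFX half-site in 1 of 11, against 12.7% of all promoters. A PU.1 core was found in 2 of 11, against 28.3% of all promoters. A CCAAT box (CCAAT) was found in 0 of 11, against 37.9% of all promoters. The 11 promoters were rich in G and C, with a median of 69.3% against 52.7% over the table. These matches describe letters in a window and were not tested as binding sites.

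A sequence is also shown for the unannotated locus with the largest difference, XLOC_013573. It lies between genes at chr15:28013625-28013881, 8.69 Mb to the centromeric side of Ywhaz, and is 257 bases long. It is given on the plus strand in lower case, since nothing in it was searched for, and it holds 2 CpG. It was not compared with known repeats, so whether its reads could come from similar sequences elsewhere was not examined.
XLOC_013573: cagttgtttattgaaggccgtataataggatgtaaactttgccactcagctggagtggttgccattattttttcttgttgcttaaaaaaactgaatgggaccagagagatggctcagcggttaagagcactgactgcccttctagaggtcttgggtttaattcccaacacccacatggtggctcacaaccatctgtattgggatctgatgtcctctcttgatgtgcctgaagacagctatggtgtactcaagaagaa
Its level was 3.96 FPKM in KO tissue and 0.150 FPKM in WT tissue.

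Ywhaz itself was examined in every library first. It was measured at 18.7, 38.2, 17.1, 14.5 and 24.1 FPKM in the KO libraries, against 118, 94.2, 100.4, 118, 95.4 and 117 FPKM in the WT libraries. The groups did not overlap, and the highest KO library was below the lowest WT library. The mean was 22.5 ± 9.47 FPKM in KO tissue (SD, n = 5) and 107.2 ± 11.8 FPKM in WT tissue (SD, n = 6). The difference of means on the log2(FPKM + 1) scale was -2.28 (SE 0.24), and an exact two-sided permutation test over 462 splits gave p = 0.00216, the smallest it can give. KO tissue thus held 21.0% of the WT level. The p-value is the share of splits with a difference at least this large, and it reflects that the groups did not overlap. Its units are these samples, and nothing in the labels names an animal for each of them.

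Values per library were used for 86 loci only, and 0 of the 197 members were among them. Each member therefore has 1 value in KO and 1 in WT tissue, no error and no test, and its difference has no replicate check. As a measure of what 1 value per group can hide, the other 85 loci with libraries had a median SD within a group of 0.67 on the log2(FPKM + 1) scale in KO and 1.38 in WT tissue, although these loci were selected by the authors' own test. The median SE of their KO minus WT differences was 0.68. The depth behind each value is not given per library in the sources used here. A fold is given as log2((KO + 1)/(WT + 1)) in FPKM, which understates the change of low loci, and a member is counted as past 2-fold where this value reached 1 in either direction.

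The libraries also differed in the level of cell type markers. The summed level of 6 macrophage markers with library values was 147 to 345 FPKM in the KO libraries and 282 to 3360 FPKM in the WT libraries, and WT replicates 1, 3 and 4 stood far above the others at 2604 to 3360 FPKM. Since members have no library values, none of the results below could be repeated without those libraries. By group value, 12 macrophage markers summed to 982 FPKM in KO and 5673 FPKM in WT tissue. Past 2-fold lower in KO were 11 of the 12, beside 4.31% of all loci with a mean of both groups of at least 1 FPKM. Cd14 was the exception (0.29). Adipocyte markers, which define the tissue, were abundant in both groups, at 44613 FPKM in KO and 20114 FPKM in WT tissue over 10 genes. Most of that gap in the sum came from Fabp4 and Cfd, and the median log2 difference of the list was 0.25. Of the 10, 7 were higher in KO by some amount, beside 53.2% of all loci past that mean. Past 2-fold higher were 3, Cfd (2.03), Fabp4 (1.17) and Retn (1.08), and 1 was past 2-fold lower, beside 9.67% and 4.31% of all loci past that mean. Adipoq, Plin1, Pparg and Cebpa were close to equal in both groups, and Lep, the leptin gene, was lower, at 278 FPKM in KO and 579 FPKM in WT tissue (-1.05). Stromal markers summed to 751 FPKM in KO and 1061 FPKM in WT tissue over 6 genes, with a median log2 difference of -1.39. Past 2-fold lower were 3 of 6, Col1a1, Col3a1 and Lum, beside 4.31% of all loci past that mean. Lower by some amount were 5 of 6, with Dpt at -0.58 and Pdgfra at -0.93. Dcn, the most abundant of them, was nearly equal, at 518 FPKM in KO and 512 FPKM in WT tissue (0.02). Epididymal markers were high in both groups as well, at 5747 FPKM in KO and 9110 FPKM in WT tissue over 7 genes. Spermatid markers summed to 626 FPKM in KO and 67.9 FPKM in WT tissue, with 6 of 6 past 2-fold higher, beside 9.67% of all loci past that mean. No marker in these lists was at 0 in either group. In bulk tissue, fewer cells of a type and less RNA per cell cannot be told apart.

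Of the 197 members, 63 had a mean of both groups of at least 1 FPKM, and these are called expressed below. They comprised 57 loci with a symbol, 53 of them protein coding, and 6 without a symbol. A locus low in 1 group can reach that mean only through the other, which by itself favours a large difference. Of the 63, 22 shared a locus with another row of the table and 10 had exons that overlap those of another gene, among them Sybu, Angpt1, Rpl30 and Ncald, so their values are less certain. The remaining 134 were under that level, and 51 of these were listed at 0 in both groups. The expressed members were spread over both sides, 34 toward the centromere and 29 toward the telomere. Most were at similar levels in both groups, with 42 of 63 within 1.5-fold, where 28.1% of all expressed loci were past 1.5-fold. The median log2 difference was -0.02, beside 0.04 over the 15245 expressed loci of the genome and 0.11 over the 545 on the rest of chromosome 15. Of the 63, 8 were past 2-fold higher in KO and 5 past 2-fold lower, where 9.67% and 4.31% of all expressed loci were (14.0% in either direction). Past 4-fold were Rgs22 and XLOC_013573, 2 of 63, where 3.73% of all expressed loci were. On the rest of chromosome 15, 70 of 545 were past 2-fold higher and 17 past 2-fold lower.

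**Figure D1:**
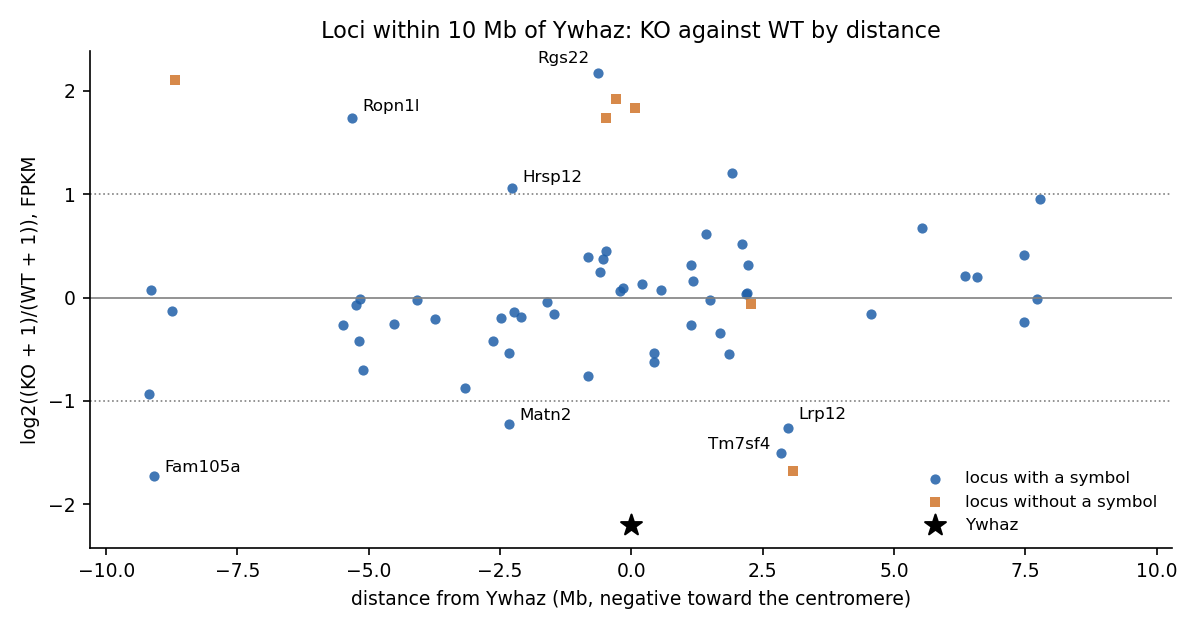
The plot gives log2((KO + 1)/(WT + 1)) in FPKM for the 63 expressed members against distance from Ywhaz in Mb, with 1 point per locus, a star for Ywhaz and dotted lines at 2-fold. Most points lie near 0 on both sides, and Rgs22 and 3 loci without a symbol stand above 1 within 1 Mb of Ywhaz.

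The nearest expressed locus, XLOC_012469 at 72.1 kb, has no symbol and was higher in KO, as given with the other loci of that kind below. The nearest loci with a symbol were close to equal in both groups. Pabpc1, 162 kb away, whose product coats the poly(A) tail of mRNAs, was at 229 FPKM in KO and 214 FPKM in WT tissue (log2 difference 0.10). On the other side, 201 kb away, the small zinc finger gene Zfp706 was at 24.5 FPKM in KO and 22.2 FPKM in WT tissue (0.13). The locus that joins Ankrd46 and the sorting nexin gene Snx31, which the file does not separate, was at 26.4 FPKM in KO and 25.3 FPKM in WT tissue (0.06). None of these 3, the nearest expressed loci with a symbol, was lower in KO.

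Farther out but still within 1 Mb, differences went both ways. Rgs22, a regulator of G-protein signalling known mainly from testis, was at 6.26 FPKM in KO and 0.612 FPKM in WT tissue, the largest log2 difference among the members (2.17). The ubiquitin ligase gene Rnf19a was at 15.9 FPKM in KO and 11.4 FPKM in WT tissue (0.45), and Polr2k, a small subunit shared by the RNA polymerases, was at 36.9 FPKM in KO and 30.9 FPKM in WT tissue (0.25). Spag1, needed to assemble the dynein arms of cilia, was at 1.55 FPKM in KO and 0.969 FPKM in WT tissue (0.38). These 4 genes were higher in KO, where 53.2% of all expressed loci were higher by some amount, and Rgs22 alone was past 2-fold. Vps13b, Grhl2 and Gm16136, also within 1 Mb, were lower, as given next.

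Some values in the same interval come from loci that overlap, where reads from the strands were not separated by the library kit. Cox6c, a subunit of cytochrome c oxidase, was at 676 FPKM in KO and 514 FPKM in WT tissue (0.40). Vps13b, a lipid transfer protein of the Golgi whose exons overlap those of Cox6c, was at 2.87 FPKM in KO and 5.57 FPKM in WT tissue (-0.76). The epithelial transcription factor gene Grhl2 was at 3.52 FPKM in KO and 5.56 FPKM in WT tissue (-0.54), and the antisense transcript Gm16136, which overlaps it, at 14.1 FPKM in KO and 22.3 FPKM in WT tissue (-0.62). Ncald was at 2.76 FPKM in KO and 2.57 FPKM in WT tissue (0.07).

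**Figure D2:**
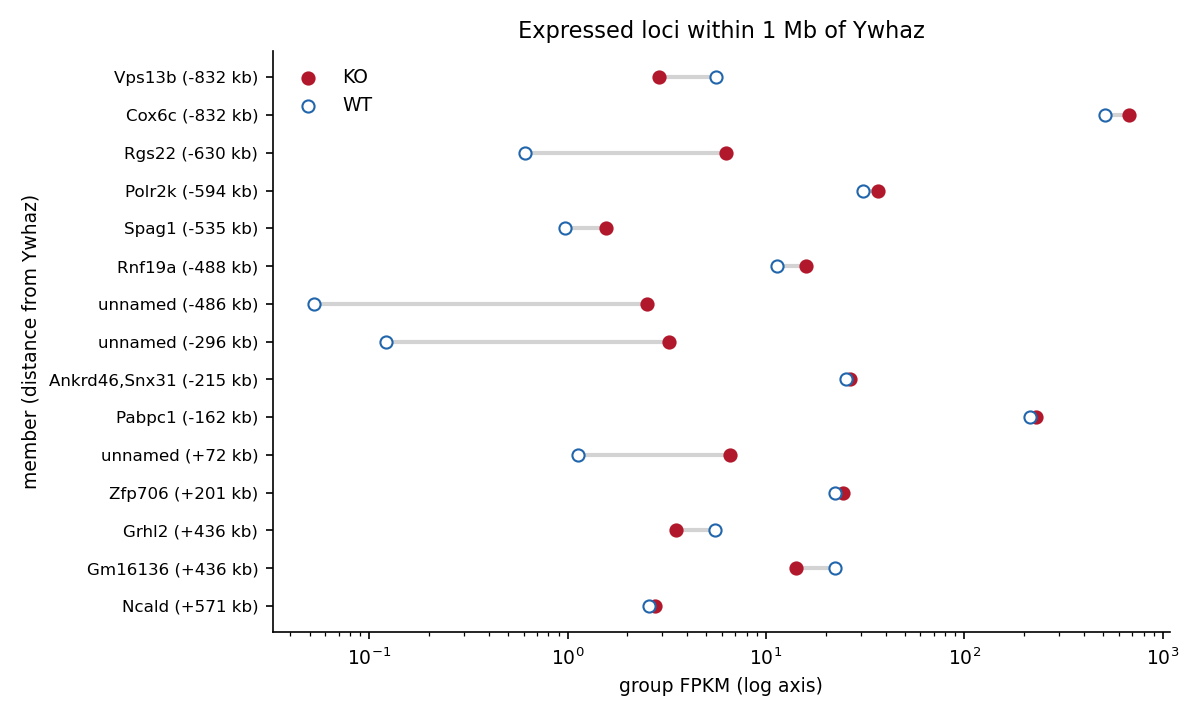
The plot gives the group FPKM of the 15 expressed members within 1 Mb of Ywhaz on a log axis, ordered from the centromeric to the telomeric side, with filled points for KO and open points for WT. The widest gaps are at Rgs22 and at 3 loci without a symbol, and Pabpc1, Zfp706 and Ncald have nearly the same level in both groups.

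By distance, the loci closest to Ywhaz had the highest median. Within 1 Mb, 12 of 15 expressed members were higher in KO by some amount, beside 53.2% of all expressed loci, with a median log2 difference of 0.25 and 4 past 2-fold higher, beside 9.67% of all expressed loci. On the centromeric side 9 of 10 were higher, with a median of 0.39, and on the telomeric side 3 of 5, with a median of 0.074. Of those 4 past 2-fold, 3 had no symbol. Rgs22, XLOC_013588 and XLOC_013587, which are among the 4, reached a mean of 1 FPKM only through KO. Over the 12 with a symbol the median was 0.11, with 1 past 2-fold. Over the 4 of these on the telomeric side it was -0.23, with 2 of 4 higher. Between 1 and 2 Mb the median was -0.03 over 10 loci. Between 2 and 5 Mb it was -0.19 over 20 loci. Of these, 15 were lower in KO by some amount, beside 7134 of the 15245 expressed loci of the genome. Past 2-fold lower were 4 of the 20, beside 4.31% of all expressed loci. Tm7sf4 and XLOC_012492, which are among these 4, reached a mean of 1 FPKM only through WT. Between 5 and 10 Mb the median was -0.01 over 18 loci. Across the 63 loci, the correlation of distance with the log2 difference was weak (Pearson's r -0.13, Spearman's rho -0.23). With the size of the difference regardless of sign it was 0.02 and -0.02. These are descriptions of loci that share the same libraries and, in part, the same locus.

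Between 2 and 5 Mb on the centromeric side, 10 of 11 expressed members were lower in KO by some amount, with a median of -0.21 over the 11. Over the genome, 7134 of 15245 expressed loci were lower by some amount. The 10 ran from Sema5a at 3.48 FPKM in KO and 3.55 FPKM in WT tissue (-0.02) to Matn2 at 8.73 FPKM in KO and 21.8 FPKM in WT tissue (-1.23). Hrsp12 was the exception. On the telomeric side of the same interval 5 of 9 were lower in KO, near the share over all expressed loci. The expressed members farthest out were Ank, 9.18 Mb from Ywhaz toward the centromere, and Sybu, 7.78 Mb toward the telomere. The first expressed loci beyond the window were March11 at 10.4 Mb, with 5.02 FPKM in KO and 0.338 FPKM in WT tissue (2.17), and Trps1 at 13.8 Mb, with 2.82 FPKM in KO and 3.57 FPKM in WT tissue (-0.26).

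**Figure D3:**
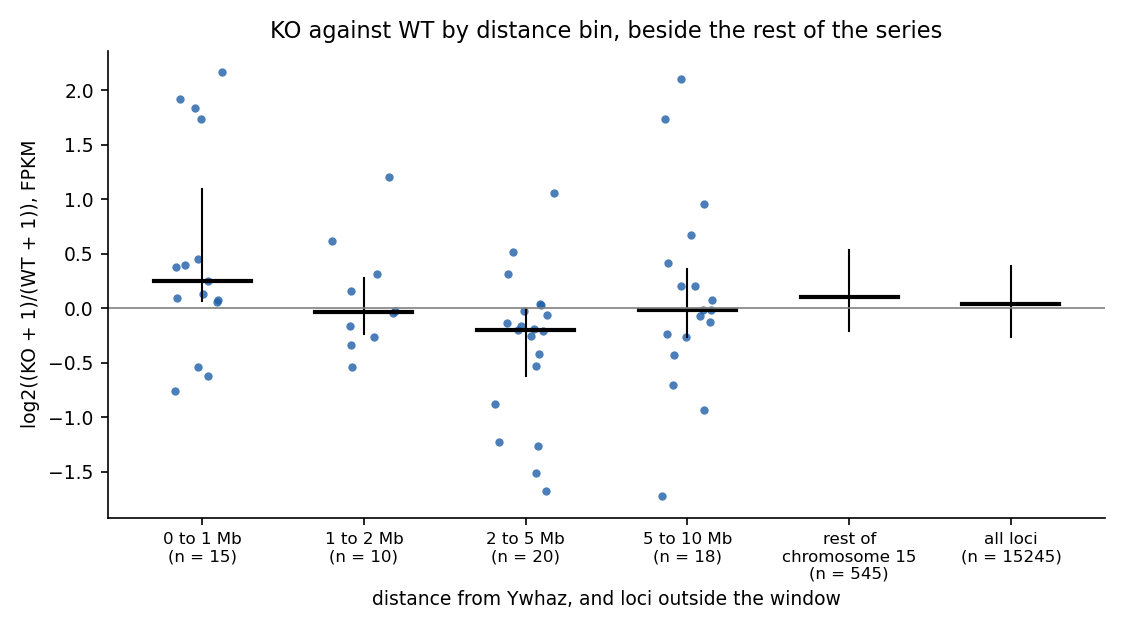
The plot gives log2((KO + 1)/(WT + 1)) in FPKM for expressed members in 4 intervals of distance from Ywhaz, as points with the median as a bar and the quartiles as a line, beside the median and quartiles of the rest of chromosome 15 and of all expressed loci. The median is 0.25 within 1 Mb and -0.19 between 2 and 5 Mb, against 0.11 on the rest of chromosome 15 and 0.04 over all loci.

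Genes known from sperm, cilia or neurons were the one role in which all expressed members were higher in KO. Over the genome, 53.2% of expressed loci were higher by some amount. Rgs22 and Spag1 reached a mean of 1 FPKM only through KO, so their rise is in part built into their selection. Of the list of this kind, 6 members were expressed, with a median log2 difference of 0.79, and 2 were past 2-fold higher, against 9.67% of all expressed loci. Besides Rgs22, this was Ropn1l, a ropporin-like protein of the sperm flagellum and of cilia, at 20.4 FPKM in KO and 5.40 FPKM in WT tissue (1.74). Odf1, an outer dense fibre protein of the sperm tail, was at 20.2 FPKM in KO and 12.8 FPKM in WT tissue (0.62). Sybu, which links vesicles to kinesin motors in axons, was at 3.68 FPKM in KO and 1.42 FPKM in WT tissue (0.95), and passed 2-fold with a pseudocount of 0.1 FPKM or none. The others of the 6 were Spag1 and Ncald, given above. The other 8 members of the list were under 1 FPKM and went both ways, with log2 differences from -0.18 to 0.29, both at Baalc.

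Several marker lists were higher in KO by group value, not only those of sperm and cilia. Red cell markers had 4 of 4 past 2-fold higher, beside 9.67% of all expressed loci. Mesothelial markers were higher by some amount in 6 of 6 and smooth muscle markers in 4 of 4, while epididymal markers were lower in 7 of 7. Besides the spermatid markers given above, 14 genes of motile cilia, a list added after the values were seen, summed to 101 FPKM in KO and 17.1 FPKM in WT tissue, with 13 of 14 past 2-fold higher and none at 0 in either group. Their part in the values of Rgs22, Ropn1l, Odf1 and Spag1 was not tested. Dnahc5, an axonemal dynein gene of the same window named after its value was seen, was at 1.19 FPKM in KO and 0.149 FPKM in WT tissue, under the level required for an expressed locus.

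The symbol-bearing members past 2-fold lower in KO were Fam105a, Tm7sf4, Lrp12 and Matn2. Fam105a, a catalytically inactive relative of the deubiquitinase OTULIN, was at 4.48 FPKM in KO and 17.1 FPKM in WT tissue (-1.73). Its neighbour Fam105b, which encodes OTULIN itself, was at 24.4 FPKM in KO and 23.1 FPKM in WT tissue (0.08). The 2 genes lie side by side at 9.09 and 9.14 Mb from Ywhaz, and only Fam105a was past 2-fold. Tm7sf4, which encodes DC-STAMP, the receptor-like protein that macrophages and osteoclasts need to fuse, was at 0.440 FPKM in KO and 3.09 FPKM in WT tissue (-1.51). It reached a mean of 1 FPKM only through WT, so its difference is in part built into its selection.

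Within the list of ligands, receptors and matrix, 2 of 9 expressed members were past 2-fold lower, against 4.31% of all expressed loci, and the median log2 difference was -0.13. Lrp12, a receptor of the low-density lipoprotein receptor family, was at 2.80 FPKM in KO and 8.11 FPKM in WT tissue (-1.26). Matn2, the other, encodes the matrix protein matrilin-2. Fzd6, a Wnt receptor, was at 9.59 FPKM in KO and 6.39 FPKM in WT tissue (0.52), and Angpt1, the ligand of the endothelial receptor Tie2, was at 3.94 FPKM in KO and 2.09 FPKM in WT tissue (0.68). The heparan sulphate proteoglycan gene Sdc2 was at 11.9 FPKM in KO and 13.9 FPKM in WT tissue (-0.21), and Dap, a gene first found in interferon-induced cell death, at 114 FPKM in KO and 137 FPKM in WT tissue (-0.27). The list thus held members on both sides. Most markers of macrophages and of stroma were lower in KO by some amount, as given above, with Cd14 and Dcn the exceptions. Their part in the values of Tm7sf4, Fam105a, Lrp12 and Matn2 was not tested.

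The list that joins mitochondrial and other metabolic genes had the lowest median of the lists (-0.34 over 7), with 0 past 2-fold. Ank, which exports pyrophosphate and ATP, was at 7.53 FPKM in KO and 15.2 FPKM in WT tissue (-0.93), and passed 2-fold with a pseudocount of 0.1 FPKM or none. Pgcp, a secreted carboxypeptidase, was at 35.4 FPKM in KO and 66.0 FPKM in WT tissue (-0.88). Cmbl, a hydrolase best known for activating drug esters, was at 62.8 FPKM in KO and 84.6 FPKM in WT tissue (-0.42). Cox6c, of the respiratory chain, went the other way (0.40), and 5 of the 7 were lower in KO, beside 7134 of the 15245 expressed loci of the genome. The largest falls of the list, those of Ank and Pgcp, are of an exporter and a secreted enzyme. The median therefore does not describe mitochondrial genes alone.

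Housekeeping roles were close to even. Among genes of RNA and protein synthesis the median was -0.07 over 12, with 1 past 2-fold higher and 0 past 2-fold lower. That one was Hrsp12, an imine deaminase first described as an inhibitor of translation, at 56.0 FPKM in KO and 26.3 FPKM in WT tissue (1.06). Rpl30 was at 537 FPKM in KO and 777 FPKM in WT tissue (-0.53), and the translation initiation factor subunit gene Eif3e at 133 FPKM in KO and 115 FPKM in WT tissue (0.21). Cct5, a subunit of the TRiC chaperonin, was at 82.5 FPKM in KO and 83.3 FPKM in WT tissue (-0.01). Fam173b, a lysine methyltransferase gene whose locus begins beside that of Cct5 on the opposite strand, was at 8.27 FPKM in KO and 14.1 FPKM in WT tissue (-0.70).

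Genes of ubiquitin, membrane traffic and the lysosome had a median of -0.04 over 13, with Fam105a the single member past 2-fold. Atp6v1c1, a subunit of the proton pump that acidifies lysosomes, was at 36.6 FPKM in KO and 53.7 FPKM in WT tissue (-0.54). Laptm4b, a lysosomal membrane protein, was at 39.8 FPKM in KO and 45.9 FPKM in WT tissue (-0.20), and Ttc35, a subunit of the complex that inserts proteins into the endoplasmic reticulum membrane, at 86.1 FPKM in KO and 74.7 FPKM in WT tissue (0.20). The 4 expressed transcription factors, Klf10, Osr2, Zfp706 and Grhl2, had a median of -0.09 and 0 past 2-fold. Klf10, a TGF-β-induced zinc finger gene, was at 16.8 FPKM in KO and 17.2 FPKM in WT tissue (-0.03). Eny2, in no list and a component of the SAGA and TREX-2 complexes, was at 18.0 FPKM in KO and 13.3 FPKM in WT tissue (0.41), but its exons overlap those of Nudcd1.

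**Figure D4:**
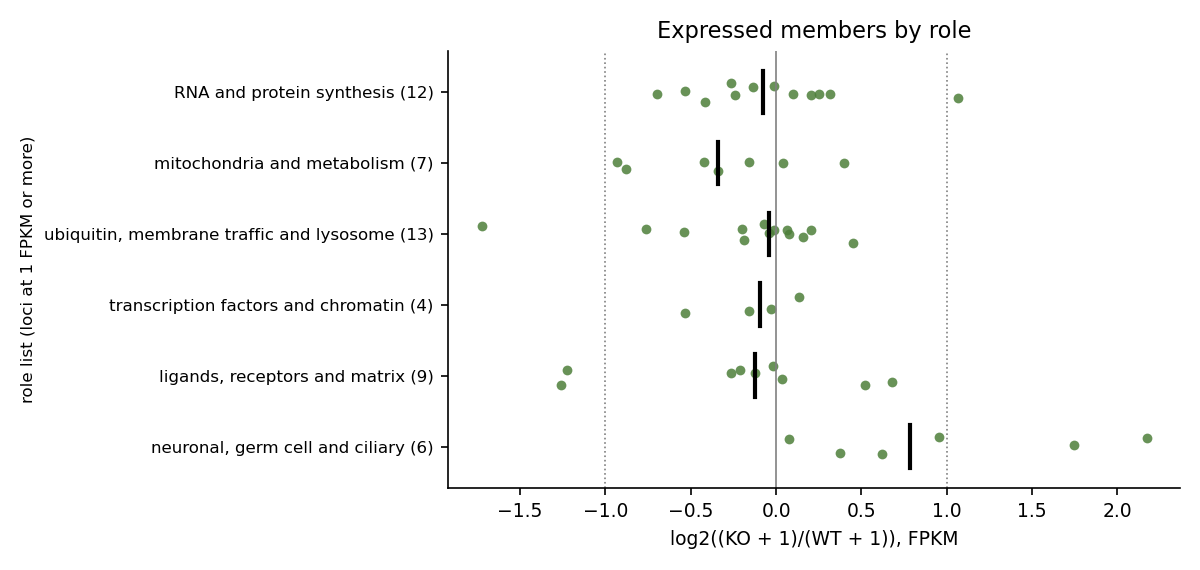
The plot gives log2((KO + 1)/(WT + 1)) in FPKM of expressed members by role, with 1 point per gene, a bar at the median of each list and dotted lines at 2-fold. The neuronal, germ cell and ciliary list has a median of 0.79 and all 6 points above 0, while the medians of the other 5 lists lie between -0.34 and -0.04.

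Most of the 6 expressed loci without a symbol had large differences, which the way they were selected favoured. They all lie between annotated genes, 4 were past 2-fold higher in KO and 1 past 2-fold lower, where 38.9% and 3.06% of the 849 expressed loci without a symbol in the genome were (41.9% in either direction). The one closest to Ywhaz, XLOC_012469 at 72.1 kb, was at 6.57 FPKM in KO and 1.12 FPKM in WT tissue (1.83). XLOC_013588, 296 kb away, was at 3.24 FPKM in KO and 0.122 FPKM in WT tissue (1.92). XLOC_013587, 486 kb away, was at 2.50 FPKM in KO and 0.0524 FPKM in WT tissue (1.73). All 3 were nearly silent or low in WT tissue, whereas the lower one, XLOC_012492, was at 0.175 FPKM in KO and 2.75 FPKM in WT tissue (-1.67) and lies beside Lrp12. The last, XLOC_013600, was at 3.02 FPKM in KO and 3.19 FPKM in WT tissue (-0.06). XLOC_013573, XLOC_013588, XLOC_013587 and XLOC_012492 reached a mean of 1 FPKM only through the group where they were higher. Their large differences are therefore in part built into their selection.

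With loci that carry a symbol considered alone, the members were close to the genome. Of the 57, 4 were past 2-fold higher in KO and 4 past 2-fold lower, beside 7.95% and 4.38% of the 14396 such loci of the genome. Those higher were Rgs22, Ropn1l, Hrsp12 and the long noncoding RNA Gm17265, which was at 1.89 FPKM in KO and 0.254 FPKM in WT tissue (1.20) and shares its locus with Baalc. Those lower were Fam105a, Tm7sf4, Lrp12 and Matn2. In either direction this was 8 of 57, beside 12.3% of such loci. Of those 8, Rgs22 and Gm17265 reached a mean of 1 FPKM only through KO, and Tm7sf4 only through WT. Within 1.5-fold were 41 of the 57, and 26.4% of such loci in the genome were past 1.5-fold.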

How the data were processed

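RNA of frozen gonadal white adipose tissue was sequenced from paired-end TruSeq libraries. According to the submitters' processing notes, the authors used TopHat2 2.0.11, Cufflinks 2.2.0 and Cuffdiff with the NCBIM37 build. The deposited FPKM were 1 value per group for every locus and 1 value per library for 86 loci chosen by the authors' own test. The fold, test statistic, p-value, q-value and call columns of the authors' comparison were not used. The scaling between libraries and the read total of each library were not given in the sources used here, although the study's methods name a read number for the sequencing.

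Groups came from the sample titles. Members were taken by position, and the lists and members were chosen with earlier results of these data known. Loci with a mean of both groups of at least 1 FPKM were compared as log2((KO + 1)/(WT + 1)), with a fold of 2 as the threshold, and Ywhaz by an exact two-sided permutation test, which was tested on simulated data. Locus starts were converted to 1-based. A symbol that a spreadsheet had turned into a date was taken from the annotation by position (March6 in the window, March11 beyond it). Named genes were the expressed symbol-bearing members within 1 Mb, the 10 largest differences each way, the 10 highest levels and the 3 highest of each role list, with predicted genes (Gm and Rik symbols) left out of all but the first. Sema5a, Fam105b, Osr2, Gm17265, Dnahc5, Tas2r119, Nudcd1, Baalc and the single unnamed loci were named once their values were known. The alternatives covered other pseudocounts, floors, windows, folds and distances, recentring, subsets of loci, each library left out and the replicate number as a block (python 3.11.15, numpy 2.4.6, pandas 2.3.3, scipy 1.17.1, matplotlib 3.10.9).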

Additional observations from a re-analysis of the deposited data

How the results depend on the processing

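The median log2 difference of the members moved by at most 0.1 under the other pseudocounts, floors, recentring and subsets and in windows of 5 and 20 Mb, but was 0.25 in a window of 1 Mb and 0.13 in one of 2 Mb. The count past 2-fold, 13 of 63, was 5 with a floor of 5 FPKM, 8 with loci with a symbol only, 4 within 1 Mb and 5 within 2 Mb. It was 21 at a fold of 1.5, where 28.1% of all expressed loci were called, and 2 at a fold of 4, where 3.73% were. Of the 8 higher and 5 lower, 2 and 3 were left with a floor of 5 FPKM. Within 1 Mb the median by distance, 0.25, was 0.13 with a floor of 5 FPKM, 0.39 on the centromeric side and 0.074 on the telomeric side. Between 2 and 5 Mb, -0.19 became -0.060 on the telomeric side, and between 5 and 10 Mb, -0.01 became -0.13 on the centromeric and 0.21 on the telomeric side. Of the 36 named genes, Ank and Sybu passed 2-fold with a pseudocount of 0.1 FPKM or none. No sign changed, but a pseudocount cannot change a sign and recentring moved each value by only 0.036, so this is no check of direction.

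The Ywhaz difference ranged from -2.48 to -2.15 when each library was left out (exact p 0.00476 to 0.00794) and was -2.33 with a pseudocount of 0.1 FPKM. With the replicate number as a block over 5 pairs it was -2.25 with an exact sign-flip p of 0.0625, the smallest that test can give, so it could not pass 0.05. The correlation of deviations of same-numbered samples over the 86 loci ran from -0.49 to 0.57. These loci were chosen by the authors' own test, so this cannot settle whether the numbers pair the samples. The study reports littermate controls, but the labels do not say which samples were littermates. For the members, leaving out a library, the block and a pseudocount on library values were not run, since 0 members have library values. Depth, which is not known per library, limits the loci near 1 FPKM.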
